A study of Mus musculus with 4 samples.

Results

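The genes described here are the mouse Hox genes and the numbered members of the Pax, Tbx, Lhx, Sox and Gata families and of the sine oculis homeobox family, all transcription factors. They were chosen by symbol alone, as every Hoxa, Hoxb, Hoxc or Hoxd gene with a number and every gene of the other families whose family name is followed by a number and nothing more, and antisense genes were left out. The RefSeq annotation holds 100 such genes, and 54 of them were listed in at least 1 of the deposited tables, out of 15935 genes listed in all. Expression was measured by RNA sequencing in bone marrow-derived macrophages, cells taken from the marrow of the femur and tibia of adult C57BL/6 mice and cultured for 5 days with a source of M-CSF, which directs marrow cells to become macrophages. The KO LPS and KO NT libraries came from mice with a floxed Ezh2 gene (Ezh2 f/f) and Cre recombinase driven by the lysozyme M promoter (LysM-Cre), which is active in myeloid cells, a genotype labelled EZH2-/-, and the WT LPS and WT NT libraries came from wild-type mice. LPS cells received lipopolysaccharide, the bacterial ligand of Toll-like receptor 4, over 2 h, and NT cells were not treated. Each group has 1 library, so the spread between replicates is unknown, no test was made and every difference compares single libraries. It is not stated how many animals gave the marrow, or whether both cultures of a genotype came from the same marrow.

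These families pattern the embryo. Hox genes stand in clusters along the chromosome, and their homeodomain proteins give cells their position along the body axis, while the other families direct the formation of organs and lineages. In differentiated cells most of their genes are silent and covered by Polycomb: Polycomb repressive complex PRC2, whose catalytic subunit is Ezh2 or its paralog Ezh1, methylates histone H3, and PRC1 acts on the marked chromatin. In mammals this usually happens at promoters rich in CpG dinucleotides. Loss of Ezh2 is known to allow such genes to be expressed in some cell types, and the libraries of Ezh2-floxed and wild-type macrophages address whether these genes differ in level between the genotypes, with and without LPS.

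Total expected counts lay between 5237782 and 5678451 per library, so 1 count stood for 0.176 to 0.191 CPM. An expected count is the estimate of the reads of a gene, and a gene with no value in a table was taken as 0 there. All 12 macrophage markers were listed in every library, with summed levels of 4163 FPKM (fragments per kilobase of gene, scaled to library size) in KO LPS, 3839 in KO NT, 4056 in WT LPS and 3598 in WT NT. Ezh2 was at 1.29 FPKM in KO LPS and 2.06 in KO NT, against 2.52 in WT LPS and 2.84 in WT NT, from 18, 31, 38 and 43 counts. Summed over LPS and NT, the Ezh2 share of counts in KO was 0.628 times that in WT (0.431 to 0.906). By state the ratio was 0.510 with LPS (0.274 to 0.915) and 0.722 without (0.440 to 1.17), and the second interval includes 1. The paralog Ezh1 was at 7.85 and 12.8 FPKM in KO LPS and KO NT, against 6.13 and 12.2 in WT LPS and WT NT. The floxed exons are not named in the labels, so the Ezh2 count can include reads from outside a deletion. All intervals here are exact 95% intervals, Clopper-Pearson for ratios of count shares and Poisson for single counts, and they cover counting error only, since PCR reads without molecular identifiers are not independent molecules.

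The families were close to silent in every library, KO included. Of the 54 members, 5 reached 1 FPKM in any library, or 9.26%, against 71.0% of all listed genes. The median of the members' highest levels was 0.145 FPKM, against 6.13 FPKM over all genes. Only 10 of the 54 members were listed in all 4 libraries (18.5%), where 78.5% of all genes were. A single library listed 21 members (38.9%), against 8.62% of all genes. The number listed was 28 in KO LPS, 34 in KO NT, 28 in WT LPS and 29 in WT NT. Over all genes it was 13956, 14351, 13972 and 14299 in the same order, so KO NT listed the most of both. Of the members under 10 counts in every library, 58.3% were listed in KO NT and 52.1% in WT NT. Among all genes under 10 counts these shares were 65.0% and 63.9%. At least 10 counts in a library were reached by 6 members: Sox4, Lhx2, Hoxb4, Hoxb9, Hoxc8 and Sox5. Sox5, at 10.46 counts, was the last to reach that limit, and Lhx6, at 9.63 counts, was just under it. Of the other 48 members, 40 stayed under 5 counts in every library and none reached 1 FPKM. Fewer cells with a transcript and fewer transcripts per cell cannot be told apart in bulk RNA.

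**Figure D1:**
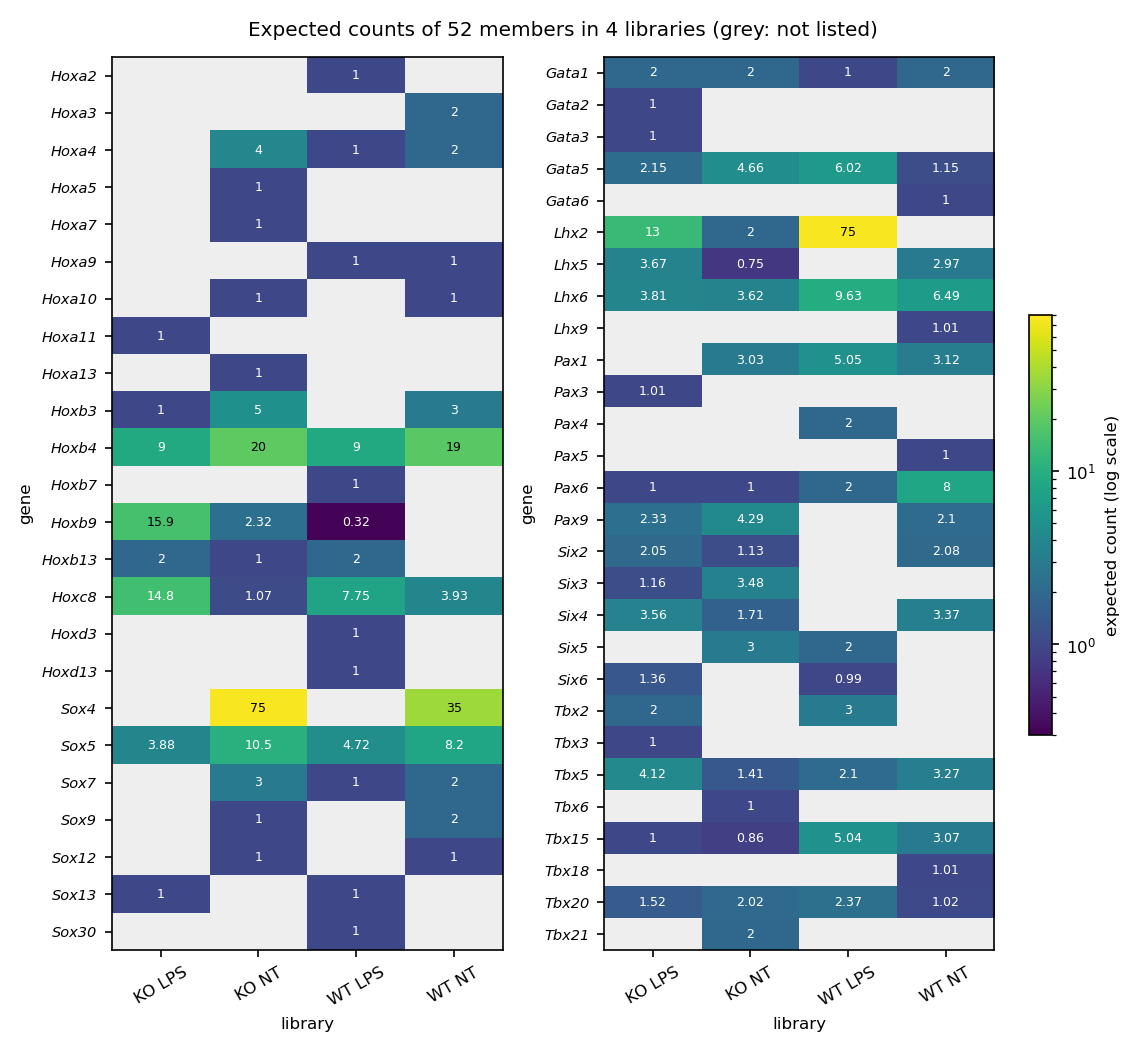
Expected counts of 52 of the 54 members in the KO LPS, KO NT, WT LPS and WT NT libraries, with genes in rows grouped by family and a logarithmic colour scale. Grey cells mark genes not listed. Most cells hold 0 to 3 counts, and Sox4 and Lhx2 reach 75 counts in KO NT and in WT LPS.

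Presence alone did not separate the genotypes. Of the 54 members, 11 were listed in a KO library and in no WT library, namely Gata2, Gata3, Hoxa5, Hoxa7, Hoxa11, Hoxa13, Pax3, Six3, Tbx3, Tbx6 and Tbx21. Their highest count was 3.48, for Six3 in KO NT, and 2 of them exceeded 1.1 counts over both KO libraries. A further 12 were listed in a WT library and in no KO library, namely Gata6, Hoxa2, Hoxa3, Hoxa9, Hoxb7, Hoxd3, Hoxd13, Lhx9, Pax4, Pax5, Sox30 and Tbx18, with no count above 2. Over all 15935 genes, 5.21% were listed in KO libraries alone and 5.06% in WT libraries alone. Of all genes 78.5% were listed in all 4 libraries, so these shares are no yardstick for members of a few counts. The shares listed in KO alone or in WT alone were not computed for genes of few counts. The 48 members under 10 counts summed to 41.74 counts in KO LPS and 58.2 in WT LPS, a ratio of 0.772 (0.511 to 1.18). Without LPS they summed to 63.96 counts in KO NT and 61.66 in WT NT, a ratio of 1.04 (0.718 to 1.49). The 4378 genes of the whole tables that stayed under 10 counts had ratios of 1.05 with LPS and 1.03 without.

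Sox4 was the member with the highest level before stimulation, and it had no count after LPS in either genotype. Sox4 encodes an HMG-box factor with roles in heart and lymphocyte development and in progenitor cells (gene ID 20677, chromosome 13, 28948919 to 28953699 in GRCm38). Its 250 bases before the RefSeq start are shown because Polycomb is known to favour CpG-rich promoters, with CpG dinucleotides in capitals (RefSeq, GRCm38.p6). The window holds 11 of them, at 0.801 of the number its base composition would give and 50.8% G and C.
Sox4, chr13:28953700-28953949, - strand: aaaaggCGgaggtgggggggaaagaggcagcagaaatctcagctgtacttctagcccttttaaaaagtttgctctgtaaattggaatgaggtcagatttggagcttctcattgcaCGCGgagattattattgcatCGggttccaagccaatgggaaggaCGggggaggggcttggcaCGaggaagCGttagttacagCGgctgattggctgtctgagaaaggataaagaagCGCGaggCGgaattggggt
Sox4 had 0 counts in KO LPS and 75 in KO NT, against 0 in WT LPS and 35 in WT NT. In FPKM the NT libraries stood at 4.44 in KO and 2.07 in WT. Both LPS libraries were thus without a read, and both NT libraries were far from 0.

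Against a floor of 3 counts per library, Sox4 was at least 23.1-fold lower with LPS in KO and at least 11.6-fold lower in WT. Most genes shifted down in share with LPS, with a median log2 fold of -0.42 in KO and -0.46 in WT over all genes of at least 1 FPKM. Centring the libraries on that shift gave bounds of 17.2-fold in KO and 8.31-fold in WT. Of 9420 genes of at least 30 counts in both NT libraries, 1 was listed in neither LPS library (0.0106%), and that gene was Sox4. The limit of 30 was chosen after its values were seen. Before stimulation Sox4 was higher in the KO library, at 2.15 times the WT share with an interval of 1.42 to 3.30. On the scale of log2(FPKM + 1) the difference was 0.83, short of 2-fold. In GENCODE M21 its exons share 2616 bases with Gm26735, a noncoding RNA on the opposite strand, and without a stated strand setting reads of these genes cannot be told apart.

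Markers of immature cells differed in the same direction as Sox4 between the NT cultures. The 9 markers of neutrophils and their precursors were all listed in every library, and their summed level was 601 FPKM in KO LPS and 667 in KO NT, against 431 in WT LPS and 396 in WT NT. The 6 progenitor markers summed to 20.4 FPKM in KO LPS and 37.5 in KO NT, against 14.6 in WT LPS and 22.0 in WT NT. Ly6a, a surface protein of stem cells that other cells make as well, held 36.3 of the 37.5 FPKM in KO NT. Cd34, which defines progenitors, had 5 counts in KO LPS, 3 in KO NT, 2 in WT LPS and 2 in WT NT. The part of these cells in the Sox4 difference was not tested.

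Lhx2 showed the opposite pattern, a gene that was near 0 without LPS and present with it, mostly in WT. Lhx2 encodes a LIM-homeodomain factor needed for the eye, forebrain and hair follicle (gene ID 16870, chromosome 2, 38339271 to 38369737). RefSeq gives it a pair of starts, and both upstream windows are shown for comparison with Sox4, CpG again in capitals. They hold 25 and 24 CpG, at 0.895 and 0.882 of the number expected from base composition.
Lhx2, chr2:38339031-38339280, + strand: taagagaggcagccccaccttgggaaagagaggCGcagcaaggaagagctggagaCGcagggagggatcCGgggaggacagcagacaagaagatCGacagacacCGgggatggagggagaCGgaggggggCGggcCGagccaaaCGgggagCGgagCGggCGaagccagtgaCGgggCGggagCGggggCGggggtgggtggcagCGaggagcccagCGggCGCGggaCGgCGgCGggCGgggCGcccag
Lhx2, chr2:38351058-38351307, + strand: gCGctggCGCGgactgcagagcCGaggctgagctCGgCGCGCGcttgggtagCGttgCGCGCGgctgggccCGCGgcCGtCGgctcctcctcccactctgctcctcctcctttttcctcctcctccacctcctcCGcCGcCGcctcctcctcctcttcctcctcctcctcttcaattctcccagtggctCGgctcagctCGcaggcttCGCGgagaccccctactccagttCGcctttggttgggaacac
Lhx2 had 13 counts in KO LPS and 2 in KO NT, against 75 in WT LPS and 0 in WT NT. These are 1.11 and 0.15 FPKM in KO, against 5.95 and 0 in WT. The WT LPS library was the high one and KO LPS lay between it and the NT libraries.

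With LPS, Lhx2 in KO stood at 0.186 times the WT share, with an interval of 0.0949 to 0.339. Within KO the LPS to NT ratio was 7.03 (1.59 to 64.2), resting on 2 NT counts, and in WT Lhx2 was at least 25.2-fold higher with LPS against a floor of 3 counts. Of 7606 genes of at least 50 counts in WT LPS, 14 were not listed in WT NT (0.184%), Lhx2 among them, a limit chosen after its values were seen. The others include Ifnb1, Csf2, Lif, Areg and Il23a, genes of secreted signalling proteins. The KO LPS to WT LPS ratios of these 14 ran from 0.110 for Ifnb1 to 1.83 for Il4i1. Since the 14 were chosen for a high WT LPS count, which is also the denominator, these ratios are a description and nothing is read from the place of Lhx2 among them. Marker sums of other cells also differed between KO and WT, with LPS and without. The 7 fibroblast and stromal markers summed to 3.59 FPKM in KO LPS and 3.69 in KO NT, against 7.07 in WT LPS and 6.65 in WT NT, and the 4 endothelial markers, of which Tek was at 0 throughout, to 6.72 and 8.17 FPKM in KO, against 10.8 and 13.8 in WT. Kdr alone made up 6.23 and 7.23 FPKM of the endothelial sum in KO, against 10.3 and 13.0 in WT, so that sum follows 1 gene. Of the stromal genes, the collagens Col1a1, Col1a2 and Col3a1 were lower in KO in both states, while Pdgfrb had 35 counts in KO LPS and 28 in WT LPS. Neutrophil and eosinophil sums were higher in KO. Their part in the Lhx2 difference was not tested. No exon of Lhx2 overlaps another gene in GENCODE M21.

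**Figure D2:**
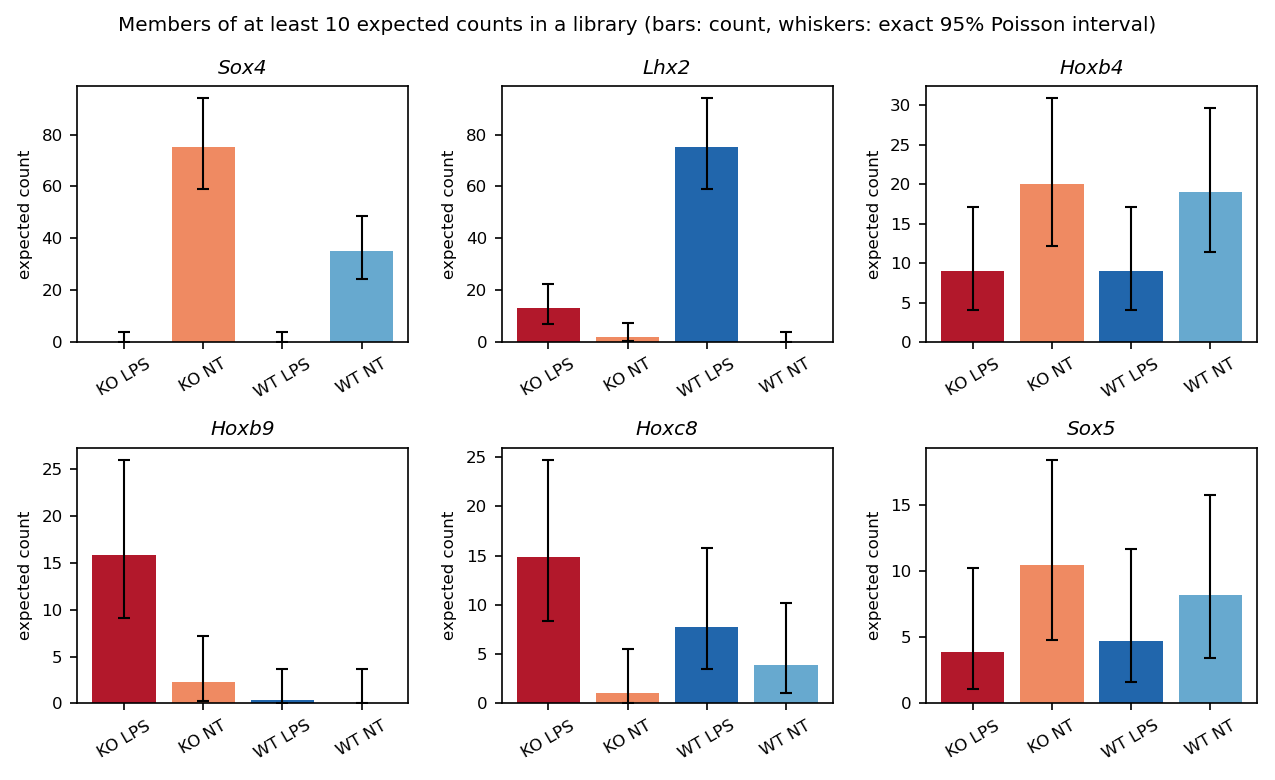
Expected counts of the 6 members of at least 10 counts, 1 panel each, in KO LPS, KO NT, WT LPS and WT NT; bars start at 0 and whiskers are exact 95% Poisson intervals. Sox4 has 75 and 35 counts in the NT libraries and 0 in both LPS libraries, while Lhx2 has 75 counts in WT LPS and 13 in KO LPS.

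Among the Hox genes, Hoxb4 was the one present in every library at a similar level in both genotypes. Hoxb4 is known for promoting self-renewal of blood stem cells (gene ID 15412, chromosome 11, 96318267 to 96321638). Its upstream window holds 14 CpG, at 0.760 of the expected number, and is shown as the Hox example.
Hoxb4, chr11:96318017-96318266, + strand: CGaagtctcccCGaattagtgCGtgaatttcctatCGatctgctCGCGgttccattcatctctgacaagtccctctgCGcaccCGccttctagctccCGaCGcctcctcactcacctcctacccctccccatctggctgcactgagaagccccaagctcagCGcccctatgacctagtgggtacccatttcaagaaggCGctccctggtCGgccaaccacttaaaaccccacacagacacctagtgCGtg
Hoxb4 had 9 counts in KO LPS and 20 in KO NT, against 9 in WT LPS and 19 in WT NT. In FPKM these are 0.67 and 1.37 in KO, against 0.62 and 1.30 in WT. The KO to WT ratio was 1.054 without LPS (0.534 to 2.09) and 1.08 with LPS (0.378 to 3.06). These intervals allow a 2-fold higher level in KO in both states. The LPS to NT ratio was 0.487 in KO (0.195 to 1.12) and 0.477 in WT (0.190 to 1.11), and with both genotypes summed it was 0.482 (0.259 to 0.862). Centred on the median gene the LPS to NT ratios became 0.655 in KO and 0.665 in WT.

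Hoxb9 and Hoxc8, known for patterning the trunk, were highest in the KO LPS library. Hoxb9 (gene ID 15417, chromosome 11, 96271330 to 96276595) had 15.87 counts in KO LPS and 2.32 in KO NT, against 0.32 in WT LPS and 0 in WT NT. Its KO to WT ratio with LPS has an interval from 4.15 with no upper limit. Hoxc8 (gene ID 15426, chromosome 15, 102990539 to 102994275) had 14.84 counts in KO LPS and 1.07 in KO NT, against 7.75 in WT LPS and 3.93 in WT NT. With LPS its KO to WT ratio was 2.06 (0.803 to 5.49), and the interval includes 1. Within KO the LPS to NT ratios were 7.40 for Hoxb9 (2.04 to 77.6) and 15.01 for Hoxc8 (2.50 to 683). Both genes met the count limit for named genes through the KO LPS library alone. That choice partly fixed KO LPS as their highest library and raised the ratios with KO LPS as numerator, so these ratios are a description. Fractional counts mean that part of the reads also matched other genes, which leaves both genes uncertain, as it does 18 of the 54 members.

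Across the clusters, the listed Hox genes were mostly Hoxa and Hoxb. Of 11 annotated Hoxa genes 10 were listed, of 10 Hoxb genes 5, of 9 Hoxc genes 1 (Hoxc8) and of 9 Hoxd genes 2. Hoxa counts summed to 1 in KO LPS (0.0253 to 5.57) and 16 in KO NT (9.15 to 26.0), against 3 in WT LPS (0.619 to 8.77) and 11 in WT NT (5.49 to 19.7). Both LPS libraries were below both NT libraries. With the genotypes summed, the LPS to NT ratio of Hoxa counts was 0.155 (0.0393 to 0.444). By genotype it was 0.0676 in KO (0.00161 to 0.435) and 0.275 in WT (0.0492 to 1.04), and the WT interval includes 1. Genes under 10 counts in every library had ratios of 0.818 in KO and 0.801 in WT. Hoxa4, a gene of the neck region of the body axis, had 0 counts in KO LPS and 4 in KO NT, against 1 in WT LPS and 2 in WT NT. Hoxa9, known in blood progenitors and leukaemia, had no count in either KO library and 1 in each WT library. The KO to WT ratio of the Hoxa sum over both states was 1.26, with an interval of 0.584 to 2.76.

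In the Hoxb cluster, Hoxb3 lies next to Hoxb4 and showed 1 count in KO LPS and 5 in KO NT, against 0 in WT LPS and 3 in WT NT. The Hoxb sum was 27.87 counts in KO LPS and 28.32 in KO NT, against 12.32 in WT LPS and 22 in WT NT. Its KO to WT ratio with LPS was 2.43 (1.24 to 5.42), and 1.08 (0.442 to 2.62) without Hoxb9. Hoxd genes had 2 counts in all, both in WT LPS, from Hoxd3 and Hoxd13. All Hox genes together held 43.71 counts in KO LPS and 45.39 in KO NT, against 25.07 in WT LPS and 36.93 in WT NT. The KO to WT ratio of that sum was 1.88 with LPS (1.13 to 3.23) and 1.23 without LPS (0.771 to 1.94). Without Hoxb9, left out after its values were seen, it was 1.21 with LPS (0.677 to 2.15) and 1.17 without LPS (0.733 to 1.86), and both intervals included 1.

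The Sox family held 4.88 counts in KO LPS and 90.46 in KO NT, against 7.72 in WT LPS and 48.2 in WT NT, and Sox4 was most of them. Sox5, a factor of cartilage and neural development (gene ID 20678, chromosome 6, 143828425 to 144782287), had 3.88 counts in KO LPS and 10.46 in KO NT, against 4.72 in WT LPS and 8.20 in WT NT. Its intervals included 1 in all 4 comparisons, its counts are fractional, and its exons share 1330 bases with Sox5os1 on the opposite strand. The upstream window of Sox5 lies at a start within the gene and is shown as a contrast to the CpG-rich windows, with 3 CpG at 0.308 of the expected number.
Sox5, chr6:143947107-143947356, - strand: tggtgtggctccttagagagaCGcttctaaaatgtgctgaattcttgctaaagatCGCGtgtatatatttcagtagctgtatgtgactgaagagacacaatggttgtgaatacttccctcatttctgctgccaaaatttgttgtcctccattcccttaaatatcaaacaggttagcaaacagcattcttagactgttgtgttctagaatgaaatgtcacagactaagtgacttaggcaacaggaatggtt
Of 17491 protein-coding genes with such a window, 41.8% hold at least 0.6 of the expected CpG and at least 50% G and C. The windows shown for Sox4, Lhx2 and Hoxb4 meet both limits, and the window shown for Sox5 meets neither. That window does not describe the outer start of Sox5, which was not measured. A comparison over all members is void, since 36 of the 54 have a window (66.7%).

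In the Pax family, whose members direct eye, ear, muscle and B-cell development, 6 of 9 annotated genes were listed. Pax counts summed to 4.34 in KO LPS and 8.32 in KO NT, against 9.05 in WT LPS and 14.22 in WT NT. Pax6, the eye and pancreas factor, had 1 count in each KO library, against 2 in WT LPS and 8 in WT NT. The KO to WT ratio of the Pax sum over both states was 0.564, and its interval of 0.273 to 1.21 includes 1. Pax5, the defining factor of B cells, had 1 count in WT NT and was listed nowhere else. The 6 B-cell markers summed to 0.76 FPKM in KO LPS and 3.71 in KO NT, against 0.99 in WT LPS and 1.35 in WT NT, with Vpreb1 at 0 in every library.

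All 6 sine oculis homeobox genes, known for sensory organ, muscle and kidney development, were listed at some point, with sums of 9.13 counts in KO LPS and 10.32 in KO NT, against 8.99 in WT LPS and 5.45 in WT NT. Six3, a factor of the forebrain and eye, had 1.16 counts in KO LPS and 3.48 in KO NT, against 0 in both WT libraries. The KO to WT ratio of that sum over both states was 1.40 (0.669 to 3.03). Tbx genes, which include the T-cell factor Tbx21 and the heart and limb factor Tbx5, were listed for 8 of 13, with 9.64 counts in KO LPS and 7.29 in KO NT, against 12.51 in WT LPS and 8.37 in WT NT. Tbx15 had 1 and 0.86 counts in the KO libraries, against 5.04 and 3.07 in the WT libraries. Of the remaining Lhx genes, Lhx6 had 3.81 and 3.62 counts in KO LPS and KO NT, against 9.63 and 6.49 in WT LPS and WT NT.

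Gata factors mark other blood lineages, and they too were near 0. Gata1, the erythroid and megakaryocyte factor, had 2 counts in KO LPS and 2 in KO NT, against 1 in WT LPS and 2 in WT NT. Gata2 and Gata3, factors of progenitors and mast cells and of T cells, had 1 count each in KO LPS and none elsewhere. Gata6, known for its role in peritoneal macrophages, had 1 count in WT NT. Gata5, from gut and heart, had 2.15 counts in KO LPS and 4.66 in KO NT, against 6.02 in WT LPS and 1.15 in WT NT. Among the markers of these lineages, Hbb-bs, Hbb-bt and Hba-a2 of the erythroid lineage, Fcer1a, Tpsb2 and Cma1 of mast cells, and Cd3e, Cd3g and Ncr1 of lymphocytes were at 0 in every library. The 10 erythroid and megakaryocyte markers summed to 68.6 FPKM in KO LPS and 70.4 in KO NT, against 64.5 in WT LPS and 52.5 in WT NT, of which Pf4 alone was 65.5 and 66.2 in KO, against 62.7 and 50.9 in WT. The 8 mast cell and basophil markers summed to 5.87 FPKM in KO LPS and 2.01 in KO NT, against 5.96 and 2.34 in WT. Hdc alone was 4.97 and 0.58 FPKM of that sum in KO, against 4.69 and 0.87 in WT, so its rise with LPS follows 1 gene. The 7 lymphocyte markers summed to 60.8 and 84.1 FPKM in KO, against 58.2 and 92.1 in WT. Il7r alone was 50.8 and 70.6 FPKM of the lymphocyte sum in KO, against 52.0 and 83.6 in WT. Cd4, which some macrophages also express, was higher in KO, with 147 and 218 counts, against 102 and 136 in WT. The 5 eosinophil markers summed to 11.7 and 6.46 FPKM in KO, against 7.69 and 3.14 in WT. Most of that sum was Ccr3, at 9.46 and 2.36 FPKM in KO, against 6.2 and 1.93 in WT, and Prg2. Prg2 was at 1.87 and 3.68 FPKM in KO, against 1.09 and 0.86 in WT. The part of such cells in the Gata counts was not tested.

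**Figure D3:**
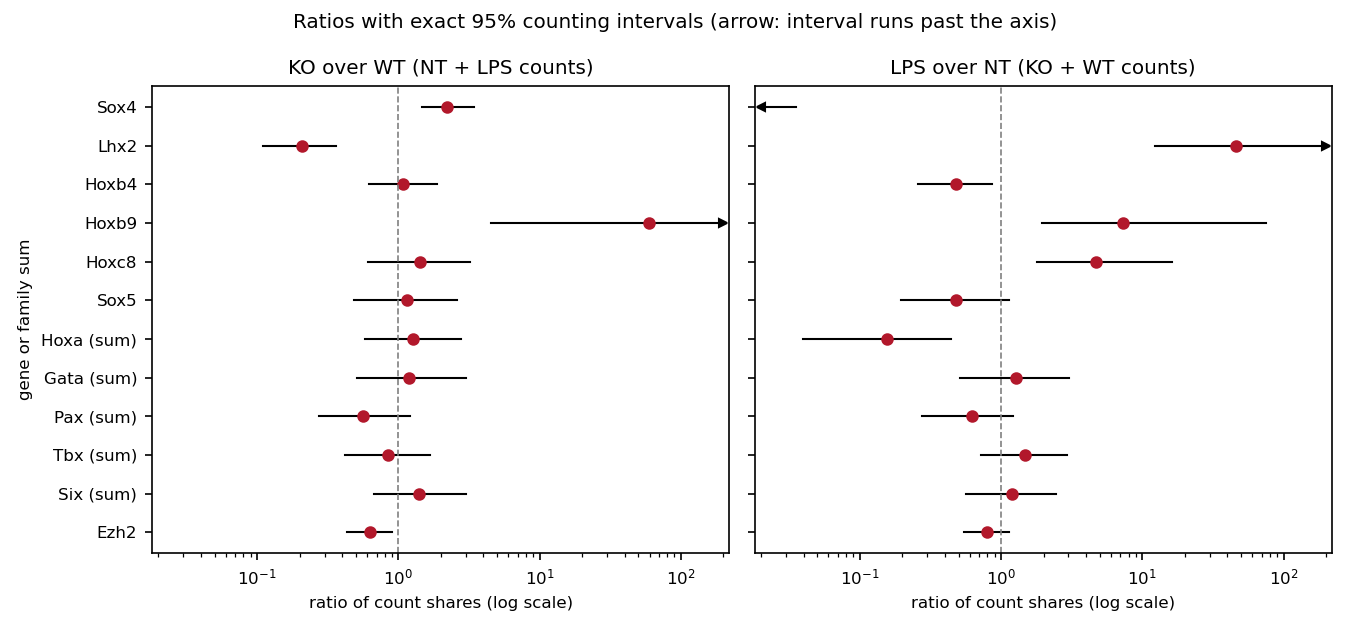
Ratios of count shares with exact 95% counting intervals on a logarithmic axis, for the 6 members of at least 10 counts, for the summed Hoxa, Gata, Pax, Tbx and sine oculis homeobox genes and for Ezh2. The left panel sets KO over WT with NT and LPS counts summed, the right panel LPS over NT with both genotypes summed; Lhx2 lies at 0.207 on the left, and the Gata, Pax, Tbx and sine oculis homeobox sums cross 1 in both panels.

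Counted by size, few members could be judged. For KO NT against WT NT, 2 members reached 1 FPKM in either library and neither was 2-fold apart. Of all 10990 genes judged, 0.928% were 2-fold or more higher in KO NT and 0.883% were lower by as much. Of 3 members with at least 10 counts, 1 (Sox4) had an interval above 1, as did 14% of all genes, and none below 1 (11.4% of all genes). For KO LPS against WT LPS, 3 members reached 1 FPKM, of which Hoxb9 was at least 2-fold higher (1.45% of all genes) and Lhx2 at least 2-fold lower (1.12%). By intervals Hoxb9 lay above 1 (20.8% of all genes) and Lhx2 below 1 (9.29%). Hoxb9 passed both limits through KO LPS alone, the numerator, which partly fixed a ratio above 1, so its call is a description.

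For LPS against NT in KO, 5 members reached 1 FPKM, of which Hoxc8 was at least 2-fold higher (6.61% of all genes) and Sox4 at least 2-fold lower (15.1%). By intervals Hoxb9, Hoxc8 and Lhx2 of 6 members lay above 1 (14.4% of all genes) and Sox4 below 1 (56.9%). Hoxb9, Hoxc8 and Lhx2 passed the limits here through KO LPS alone, the numerator, and Sox4 through KO NT alone. That partly fixed the side of each ratio, so the shares of all genes are no yardstick for them. For LPS against NT in WT, 3 members reached 1 FPKM, with Lhx2 at least 2-fold higher (6.41% of all genes) and Sox4 at least 2-fold lower (17.2%). Their intervals lay on the same sides, where 13.2% of all genes had one above 1 and 60.2% one below 1. Lhx2 and Sox4 each passed the limits in WT only through the library where the gene was high. With so few members past the limits, these counts describe single genes and not the families. The KO and WT comparisons use each library in more than 1 contrast, so they are not independent of each other.

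The sum over all 54 members followed those single genes. It was 98.33 counts in KO LPS and 154.99 in WT LPS, a ratio of 0.683 (0.523 to 0.882), and 1.15 (0.832 to 1.57) without Lhx2. Without LPS the sum was 174.81 in KO NT and 127.79 in WT NT, a ratio of 1.37 (1.08 to 1.73), and 1.08 (0.804 to 1.44) without Sox4. Leaving out both genes, the KO to WT ratio was 1.15 with LPS and 1.06 without LPS, and both intervals included 1.

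Genes that act with these families were expressed at higher levels. Of the 17 Hox cofactors and Trithorax genes, which keep Hox genes active, 12 reached 1 FPKM in each comparison. On the log2(FPKM + 1) scale none was 2-fold apart between KO and WT in either state, and the median differences were 0.20 with LPS and 0.03 without, against 0.08 and 0.02 over all genes. That scale understates low genes. Pbx3, a homeodomain protein that binds DNA with Hox proteins, had 36 counts in KO LPS and 54 in KO NT, against 15 in WT LPS and 24 in WT NT. Its KO to WT ratio of count shares was 2.58 with LPS (1.38 to 5.08) and 2.25 without (1.37 to 3.81), and the KO library was the higher one in both states. No other measured gene of the list was 2-fold apart by that ratio. The share of all genes past that rule was not computed. Intervals above 1 for KO against WT were held by 20.8% of all genes with LPS and 14% without. Meis1, the Hox partner of blood progenitors, had 1.08 counts in KO LPS and 12.04 in KO NT, against 1.01 in WT LPS and 11.32 in WT NT, low with LPS in both genotypes as Sox4 was. The LPS to NT ratio of Meis1 was 0.0971 in KO (0.00211 to 0.610) and 0.0899 in WT (0.00213 to 0.630). Its counts are fractional. Of the 13 Lhx and Gata cofactors, 9 reached 1 FPKM in each comparison of LPS with NT, and Ldb1, Lmo2 and Lyl1 were at least 2-fold lower with LPS in each genotype, where 15.1% of all genes were in KO and 17.2% in WT. Lmo4, a LIM-only protein, was at 45.5 FPKM in KO LPS and 30.04 in KO NT, against 53.4 in WT LPS and 26.2 in WT NT, and reached 2-fold higher with LPS in WT (6.41% of all genes). Lyl1, a partner of Gata factors in blood progenitors, was at 4.43 FPKM in KO LPS and 51.1 in KO NT, against 3.33 in WT LPS and 44.9 in WT NT. Ldb1, which binds the LIM domains of Lhx2, was at 10.7 and 30.01 FPKM in KO, against 9.37 and 24.5 in WT. Of 6 partner genes of the sine oculis homeobox family, 3 reached 1 FPKM, and none was 2-fold apart between KO and WT on either scale.

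All 12 PRC2 and 19 PRC1 genes were listed. Of these, 12 PRC2 genes reached 1 FPKM in both comparisons of KO with WT, and 15 PRC1 genes did with LPS and 18 without. On the log2(FPKM + 1) scale no measured subunit was 2-fold apart between KO and WT in either state. By the ratio of count shares 2 subunits were, both higher in KO. The share of all genes 2-fold apart by that ratio was not computed, so this describes single genes and not the complexes. Phf19, a PRC2 accessory subunit, had 50 counts in KO NT and 23 in WT NT, a ratio of 2.18 (1.30 to 3.74), and its ratio with LPS was 1.42 (0.892 to 2.29). Pcgf6, of a PRC1 variant, had 16 counts in KO LPS and 8 in WT LPS, a ratio of 2.15 whose interval of 0.869 to 5.81 includes 1. Median log2(FPKM + 1) differences between KO and WT were 0.23 with LPS and 0.20 without for PRC2, and 0.18 and 0.14 for PRC1. Over all genes they were 0.08 and 0.02. Of 12 PRC2 genes, 5 had intervals above 1 in each state, and 1, Ezh2, lay below 1 with LPS. For PRC1, 2 of 15 lay above 1 and 1 below with LPS, and 3 of 18 above and 2 below without. Intervals above 1 were held by 20.8% of all genes with LPS and 14% without, and the shift of the complexes was not tested.

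Most developmental factors outside these families were low as well, but the 2 sets differed in how often their genes were listed. Of 127 such genes known as Polycomb targets, 41 were listed and 8 reached 10 counts in a library, against 54 and 6 of 100 genes of the families described here. Of those listed, 9.76% reached 1 FPKM in a library, against 9.26% of the members. All 4 libraries listed 31.7% of them, against 18.5% of the members. Pou3f1, a POU-domain factor of neural and epidermal cells, was lower in KO in both states, at 0.50 FPKM in KO LPS and 0.52 in KO NT, against 3.11 in WT LPS and 1.57 in WT NT. These rest on 8, 9, 53 and 27 counts. Its KO to WT ratio was 0.162 with LPS (0.0667 to 0.344) and 0.334 without (0.138 to 0.731). Intervals below 1 for KO against WT were held by 9.29% of all genes with LPS and 11.4% without. Hlx, a homeobox gene active in blood cells, had the highest level of the list, at 29.8 FPKM in KO LPS and 17.6 in KO NT, against 21.1 in WT LPS and 15.6 in WT NT, a KO to WT ratio of 1.41 with LPS (1.20 to 1.67) and 1.13 without (0.928 to 1.38).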

How the data were processed

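RNA from 4 macrophage cultures was sequenced on a HiSeq instrument, per the labels' protocols, and groups follow the sample titles. Bowtie and RSEM were used with genome mm10, per the submitters' processing notes. Program versions, annotation and strand setting were not given in the sources used here. The deposited expected count comes from RSEM as run by the authors, which splits shared reads among genes, and the deposited FPKM is the authors' level scaled to gene length and library size. The deposited gene length was not used to compute any result. FPKM is a share of all reads, so strongly induced genes lower the others.

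Of 15935 gene identifiers, 15897 matched a symbol in RefSeq of GRCm38.p6, the assembly of mm10, and 38 did not. Promoter sequences are RefSeq's for that build. Ratios are of expected counts over library totals, with counts rounded to whole numbers for the intervals. Log2 differences use FPKM + 1 and cover genes that reach 1 FPKM in either library compared. A fold against 0 is a bound from 3 counts per library. With 1 library per group there was nothing to test. The computations were tested on simulated counts. Python 3.11.15 with pandas 2.3.3, numpy 2.4.6 and scipy 1.17.1 was used. Alternatives were a pseudocount of 0.1, other filters, median-ratio scaling, leaving out the leading gene, count minimums and, added after seeing the data, the Hox sum without Hoxb9. The rule for named genes took every member of at least 10 counts in a library. Members and lists were chosen with earlier results of these data known. Genes outside this rule, such as Hoxa4, Meis1 and Pou3f1, were picked with their values in view. A few genes are not reported here.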

Additional observations from a re-analysis of the deposited data

Results flagged for a closer look

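Some genes had KO to WT ratios on opposite sides of 1 in the 2 states, and the difference between the states was not tested. Lhx2 had 2 counts in KO NT and was not listed in WT NT, while with LPS its KO to WT ratio was 0.186. Hoxc8 had a ratio of 2.06 with LPS (0.803 to 5.49) and 0.273 without (0.00509 to 2.53), the second from 1.07 counts in KO NT and 3.93 in WT NT, and both intervals included 1. Sox5 had ratios of 0.884 with LPS and 1.28 without, and both intervals included 1.

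Noncoding genes named after these families lie outside the rule that chose the members. Sox1ot had 15.61 counts in KO LPS and 9.77 in KO NT, against 20.34 in WT LPS and 20.94 in WT NT. Sox2ot had 5.03 and 6.64 counts in the KO libraries, against 8.69 and 11.3 in the WT libraries. Both exceed the floor of 3 counts in every library, and both have fractional counts, so part of their reads matched other genes.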

How the results depend on the processing

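No paired analysis was possible because each group has 1 library. The number of members at least 2-fold higher was 1 in place of 0 for KO NT against WT NT with a pseudocount of 0.1 FPKM, and 3 in place of 1 for LPS against NT in KO with that pseudocount or with median-ratio scaling; the other counts of members 2-fold apart stayed as reported under every planned setting. The summed member ratio turned from 0.683 to 1.15 without Lhx2 for KO LPS against WT LPS, and from 0.609 to 1.07 without Sox4 for LPS against NT in KO, where median-ratio scaling gave 0.819. For KO NT against WT NT it was 1.08 without Sox4 in place of 1.37. For LPS against NT in WT it was 1.22, with 1.70 under median-ratio scaling and 0.631 without Lhx2. A minimum of 3 expected counts left 9 members in KO LPS, 13 in KO NT, 10 in WT LPS and 12 in WT NT. The ratios of single genes and of the Hox sum stayed within their intervals in all 36 recomputations, but the Hox interval with LPS included 1 without Hoxb9 (1.21, in place of 1.88). Leaving out a replicate leaves a group empty and was not run. At this depth a gene with 0 counts in a library is not shown to be absent, since the interval of 0 counts reaches 3.69. A gene under 3 counts rests on too few reads to compare.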
